A study of Mus musculus with 34 samples.

Results

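The SLAM receptor family was followed in arrays of CD4+ splenocyte RNA, covering 5 inbred strains of mice at rest and once stimulated. Its 9 members were Slamf1, Slamf6, Slamf7, Slamf8, Slamf9, Cd48, Cd84, Cd244a (the annotation's name for Cd244) and Ly9. They were taken by symbol from 19938 genes on the array, in a family chosen with earlier results of these data known, and each was read by 1 probe set. All samples came from female mice aged 8 weeks, of the strains C57BL/6J, 129X1/SvJ, A/J, DBA/2J and Balb/c. CD4+ cells were isolated with magnetic beads and were either left unstimulated (T0) or stimulated for 4 h (T1) with 10 ng/ml phorbol 12-myristate 13-acetate (PMA) and 1 uM ionomycin. PMA activates protein kinase C and ionomycin raises cell calcium, so the pair drives T cell signalling without the T cell receptor. Each group of strain and time had 4 arrays for A/J and C57BL/6J and 3 arrays for the other strains, 34 in all. Whether T0 cells were also kept in culture for those hours is not settled by the labels. The labels call the replicates biological without saying whether each came from 1 mouse or from pooled mice, so p-values measure the spread between these samples.

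SLAM family receptors are cell surface proteins of the immunoglobulin superfamily. Most bind a second copy of themselves on a neighbouring cell, whereas CD244 binds CD48, which is held in the membrane by a lipid anchor and also binds CD2. Most members carry tyrosine switch motifs in the cytoplasmic tail that recruit the small adaptor SAP, the product of Sh2d1a, which in turn brings in the kinase Fyn. SAP and its relative EAT-2 (Sh2d1b1 and Sh2d1b2) set whether these receptors activate or inhibit, and in CD4+ T cells the SAP pathway is known for help to B cells. Most of the genes lie side by side on chromosome 1, and C57BL/6J is known to carry another haplotype of this cluster than the other 4 strains used here.

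The 3 members that moved most after stimulation were Slamf1 and Slamf7, which rose, and Slamf6, which fell. The sequence before each start site is shown for these 3, from RefSeq on GRCm38.p6, which is the C57BL/6J genome, as the first 250 bases of a 300-base window around the annotated start. Capitals mark matches on either strand to motifs of factors that PMA and calcium are known to activate, namely AP-1 (TGANTCA) and the core of NFAT sites (GGAAA), and no 2 marked matches overlap.
Slamf1, chr1:171766882-171767131, plus strand: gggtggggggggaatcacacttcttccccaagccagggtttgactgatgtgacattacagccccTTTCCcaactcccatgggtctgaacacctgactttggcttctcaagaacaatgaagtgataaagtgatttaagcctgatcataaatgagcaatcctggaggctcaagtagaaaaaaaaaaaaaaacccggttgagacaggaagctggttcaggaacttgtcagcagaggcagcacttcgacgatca
Slamf7, chr1:171649000-171649249, minus strand: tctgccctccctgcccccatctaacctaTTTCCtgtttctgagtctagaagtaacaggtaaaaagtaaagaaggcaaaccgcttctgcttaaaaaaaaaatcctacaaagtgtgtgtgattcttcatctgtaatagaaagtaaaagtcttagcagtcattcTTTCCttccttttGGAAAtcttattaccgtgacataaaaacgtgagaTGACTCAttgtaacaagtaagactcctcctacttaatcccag
Slamf6, chr1:171917212-171917461, plus strand: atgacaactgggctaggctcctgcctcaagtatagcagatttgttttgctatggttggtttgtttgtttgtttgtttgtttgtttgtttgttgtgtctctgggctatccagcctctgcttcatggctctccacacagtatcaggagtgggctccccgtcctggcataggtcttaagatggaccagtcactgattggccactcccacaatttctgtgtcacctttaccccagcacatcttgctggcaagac
The Slamf7 stretch held 1 AP-1 match and 3 GGAAA matches, the Slamf1 stretch held 1 GGAAA match, and the Slamf6 stretch held neither motif. Across the 32841 promoters of the table, 6.75% held an AP-1 match and 55.6% a GGAAA match, so a single GGAAA match is common in a stretch of this length. Of the 9 members, 8 were in the table, and Ly9 was not. AP-1 was also matched once in Cd84 and once in Cd244a. GGAAA was matched once each in Slamf9, Cd48, Cd84 and Cd244a and not in Slamf8. Neither the NF-kappaB motif (7.25% of promoters) nor the cyclic AMP response element TGACGTCA (1.55%) was matched in any of the 8. These matches describe letters only, and no binding was measured.

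Values are the log2 intensities deposited by the authors, and a difference of 1 on this scale is a doubling of intensity. Intensities of different probe sets are not on a common scale, so each gene was compared with itself only. Differences were tested with limma in 1 model of all 34 arrays, and a gene was called when its adjusted p-value (Benjamini-Hochberg, 11413 genes) was under 0.05. Genes entered the test only where at least 1 group mean was at or over a limit of 5.33, the median value of the whole table, and all 9 members did. For Slamf8 this rested on 1 of 10 groups, C57BL/6J at T1, and for Slamf9 on 2, DBA/2J and 129X1/SvJ at T0, and both had to be high there to be kept, so for these 2 genes p-values below come from the fit with no filter, over all 19938 genes, unless the filtered genes are named, and the counts are also given for the 6 members over the limit in all 10 groups. Cd244a was under the limit in 2 groups. Under the limit a value may be no more than background. In bulk RNA, fewer cells of a type and less RNA per cell cannot be told apart.

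Array medians lay between 5.28 and 5.39. Replicate 2 of Balb/c at T1 stood apart, with a median correlation of 0.948 with its group against 0.965 or more for every other array. It had the highest Balb/c T1 value of every member but Slamf8 and Cd244a, and some strain comparisons that it changed are named below. T cell markers were high throughout: the mean log2 value of 7 measured markers was 9.37 to 9.93 at T0 and 8.50 to 9.38 at T1, with none under the limit. Markers of other cells were present too. From T0 to T1 the mean log2 level of 10 B cell markers went from 7.23 to 8.89 down to 6.51 to 7.18, that of 9 neutrophil markers from 5.04 to 7.02 down to 4.40 to 5.62, and that of 8 dendritic cell markers from 5.67 to 6.64 down to 5.19 to 5.73. The B cell levels did not overlap between the times and the other 2 did. Levels also overlapped for NK cells (8 markers, 4.24 to 5.93 and 4.11 to 5.12), monocytes and macrophages (9 markers, 6.03 to 7.43 and 5.73 to 6.94) and CD8 T cells (2 markers, 6.30 to 7.25 and 5.68 to 6.48). They also overlapped for erythroid cells (6 markers, 5.38 to 9.47 and 6.05 to 9.51), platelets (4 markers, 4.44 to 5.19 and 4.42 to 4.87) and plasma cells (5 markers, 7.10 to 8.12 and 7.40 to 8.43).

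**Figure D1:**
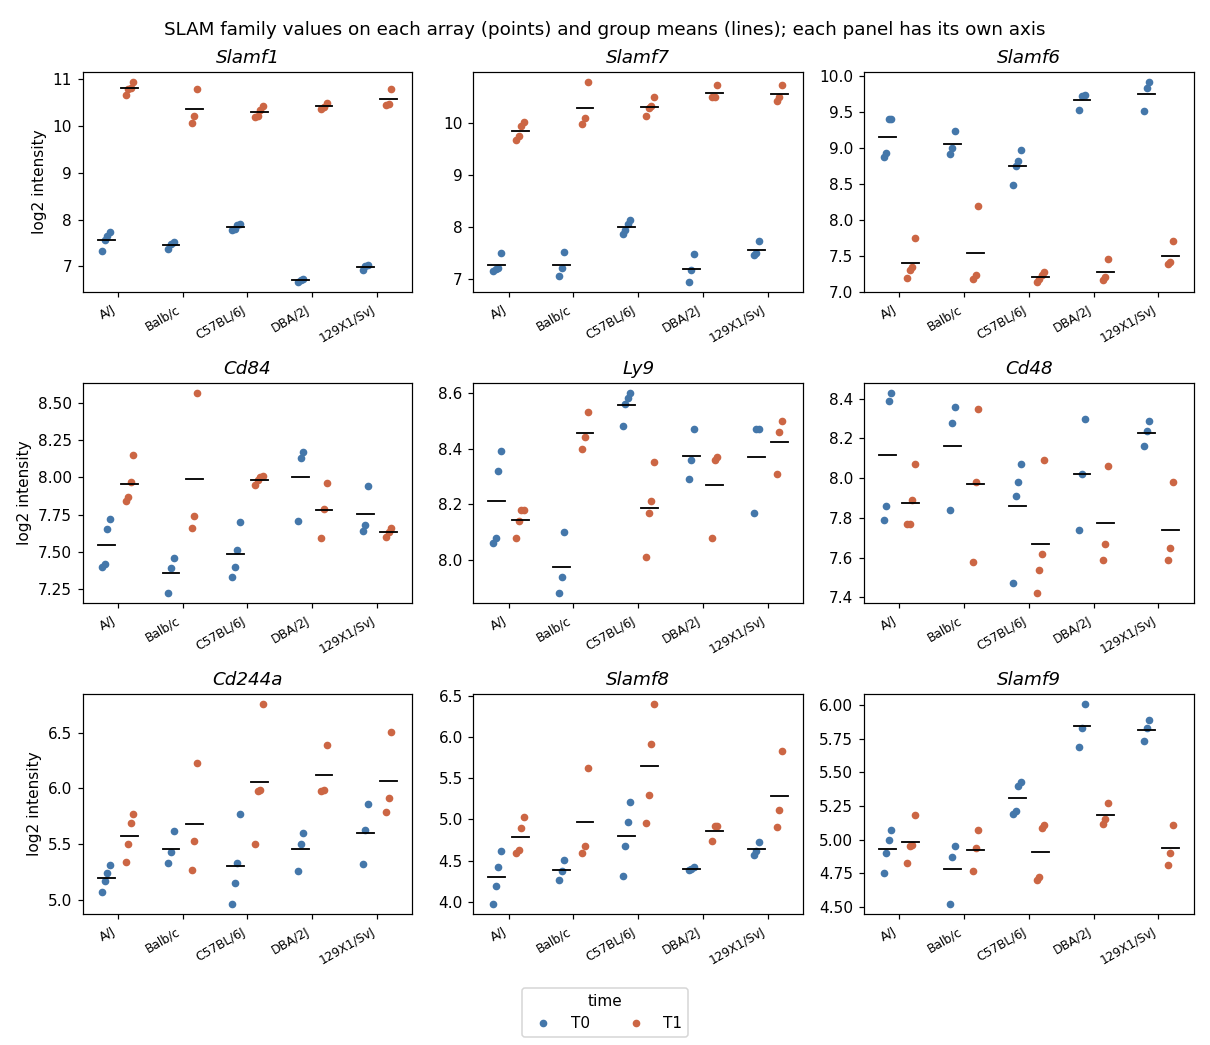
Log2 intensity of the 9 members (one panel each, with its own vertical axis) in 5 strains at T0 and T1; each point is 1 array and each black line a group mean of 3 or 4 arrays. Slamf1 and Slamf7 lie higher on every T1 array than on any T0 array, Slamf6 lies lower, and the other 6 members overlap between the times.

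After stimulation, averaged over the 5 strains, 5 members rose and 3 fell, and Ly9 was not called; of the 6 over the limit in all groups, 3 rose and 2 fell. Among all genes tested 82.3% were called, 36.0% upward and 46.3% downward, so the count of 8 of 9 by itself was near the background. The sizes set 3 members apart from the rest of the family. Slamf1 rose 9.04-fold, Slamf7 rose 7.18-fold and Slamf6 fell 3.71-fold, whereas the other called members changed by 1.18-fold to 1.52-fold. The median log2 difference was 0.24 over the members and -0.07 over all genes tested. In 3 of 9 members, the same 3, no T0 array overlapped any T1 array. Among all genes 9.28% lay wholly higher at T1, as Slamf1 and Slamf7 did, and 17.5% wholly lower, as Slamf6 did.

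Slamf1 encodes SLAM (CD150), a receptor that binds itself and marks activated T cells. Its log2 values at T0 ran from 6.66 through a median of 7.48 to 7.90, and at T1 from 10.06 through 10.45 to 10.94. The lowest stimulated array was above the highest unstimulated array by more than the whole range of either time. The mean log2 difference was 3.18 ± 0.05 (SE, n = 17 arrays at each time; limma, adjusted p = 3.09e-29), which ranked 32nd among the rises of 11413 genes. It was higher at T1 in each of the 17 pairs of arrays that share a strain and number.

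Slamf7 encodes CRACC, a self-binding receptor best known from NK cells and plasma cells. Its T0 values ran from 6.94 through a median of 7.49 to 8.14, and its T1 values from 9.66 through 10.32 to 10.78. The times again did not overlap, and all 17 pairs rose. The mean log2 difference was 2.84 ± 0.07 (SE; limma, adjusted p = 1.79e-25), the 45th largest rise. Of the 8 NK cell markers, whose mean level was 4.24 to 5.93 at T0 and 4.11 to 5.12 at T1, Ncr1, Klrb1c, Klra8 and Klre1 were under the limit in all 10 groups. Of the other 4, Nkg7, a granule protein of NK cells and cytotoxic T cells, rose by 1.24 on the log2 scale (adjusted p = 1.05e-09), and Klrd1, Eomes and Klrk1 fell. Of 5 plasma cell markers Prdm1 (1.11, adjusted p = 2.97e-14), which activated T cells also express, and Sdc1 (0.23) rose, Xbp1 and Mzb1 fell (both -0.45), and Jchain was not called (0.28). The part of these cells in the rise of Slamf7 was not tested.

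Slamf6 encodes Ly108, a self-binding receptor of T cells and B cells. Its T0 values ran from 8.48 through a median of 9.24 to 9.92 and its T1 values from 7.13 through 7.27 to 8.20. The highest T1 value belonged to Balb/c replicate 2, and the next highest was 7.75 in A/J. The mean log2 difference was -1.89 ± 0.08 (SE; limma, adjusted p = 2.33e-19), the 113th largest fall, and it was -1.96 without Balb/c T1 replicate 2. All 17 pairs fell. Over the same interval 7 of 10 B cell markers were called lower, against 46.3% of all genes, among them Cd79b with -4.21 and Ms4a1 with -1.78, and 3 (Cr2, Blk and Ebf1) were called higher, against 36.0%. Of 7 T cell markers, 5 were called lower, among them Cd3g with -1.66 and Cd4 with -0.86, and Cd5 (0.04) and Lat (0.06) were not called. The part of either cell type in the fall of Slamf6 was not tested.

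Among the other receptors with switch motifs, Cd84 and Ly9 moved little. Cd84, a self-binding receptor that helps T cells adhere to B cells, ran from 7.22 to 8.17 at T0 and from 7.59 to 8.57 at T1. The times overlapped, and the mean log2 difference was 0.24 ± 0.07 (SE; limma, adjusted p = 0.00227) with 13 of 17 pairs higher. Ly9, a self-binding receptor also known as CD229, ran from 7.88 to 8.60 at T0 and from 8.01 to 8.53 at T1. Its mean log2 difference was 0.00, with a 95% interval from -0.09 to 0.09 (adjusted p = 0.978), 8 pairs were higher and 9 lower, and this mean joined strains that moved in opposite directions, as described below.

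The ligand and receptor pair moved in opposite directions. Cd48, the anchored ligand, ran from 7.47 to 8.43 at T0 and from 7.42 to 8.35 at T1, with a mean log2 difference of -0.27 ± 0.09 (SE; limma, adjusted p = 0.00532) and 16 of 17 pairs lower. Cd244a, its receptor, known from NK cells and cytotoxic T cells, ran from 4.96 to 5.86 at T0 and from 5.27 to 6.76 at T1. The times overlapped for both genes. The mean log2 difference of Cd244a was 0.50 ± 0.10 (SE; limma, adjusted p = 6.61e-05) with 16 of 17 pairs higher, at values near the limit, where 10 of 34 arrays lay under it.

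Slamf8 and Slamf9, which lack the switch motifs and are described mainly in myeloid cells, had the most values under the limit, 30 of 34 arrays for Slamf8 and 26 for Slamf9. Slamf8 ran from 3.97 to 5.21 at T0 and from 4.59 to 6.40 at T1, with a mean log2 difference of 0.60 ± 0.12 (SE; limma with no filter, adjusted p = 2.77e-05) and all 17 pairs higher. Slamf9 ran from 4.52 to 6.01 at T0 and from 4.70 to 5.27 at T1, with a mean log2 difference of -0.35 ± 0.06 (SE; limma with no filter, adjusted p = 2.07e-06) and 13 of 17 pairs lower. Their sizes are not exact, since most groups lay under the limit. The levels of monocyte and macrophage markers overlapped between the times, with a mean of 6.69 at T0 and 6.33 at T1. Of these 9 markers 3 were called lower after stimulation (Lyz2 -1.29, Itgam -1.18 and Csf1r -0.4) and 1 higher (Fcgr1, 0.2). All 8 neutrophil markers in the test were called lower. Among all genes 46.3% were called lower and 36.0% higher. The part of these cells in either change was not tested.

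Within strains, Slamf1, Slamf7 and Slamf6 were called in the same direction in all 5, as were 39.4% of all genes. In A/J 3 members rose and 1 fell, against 20.3% and 36.3% of all genes. In Balb/c 4 rose and 1 fell, against 20.6% and 34.1%. In C57BL/6J 5 rose and 3 fell, against 25.1% and 38.6%. In DBA/2J 3 rose and 2 fell, against 23.8% and 36.2%, and in 129X1/SvJ 3 rose and 3 fell, against 21.6% and 34.7%. Of the 6 members over the limit in all groups, Balb/c and C57BL/6J each had 5 called in either direction, A/J and 129X1/SvJ 4 each, and DBA/2J 3. Cd84 rose in A/J (log2 difference 0.41), Balb/c (0.63) and C57BL/6J (0.50), and was -0.22 in DBA/2J and -0.13 in 129X1/SvJ, not called. The Balb/c value fell to 0.34 without replicate 2 at T1 (adjusted p = 0.041), and the A/J call was lost without A/J T1 replicate 4 (adjusted p = 0.0507). Ly9 rose in Balb/c by 0.48 (adjusted p = 0.000316) and fell in C57BL/6J by 0.37 (adjusted p = 0.000978). It was not called in the other 3 strains.

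With no filter, Slamf9 fell in C57BL/6J (log2 difference -0.40, adjusted p = 0.00453), DBA/2J (-0.66, adjusted p = 0.000111) and 129X1/SvJ (-0.87, adjusted p = 1.83e-06) and was 0.05 in A/J and 0.15 in Balb/c, not called. Cd244a rose in C57BL/6J by 0.76 (adjusted p = 0.00244) and in DBA/2J by 0.66, a call that was lost without DBA/2J T0 replicate 2 (0.0814) or T1 replicate 3 (0.0987). Slamf8 rose in C57BL/6J by 0.85 (adjusted p = 0.0036 with no filter) and was 0.65 in 129X1/SvJ, where it was called only among the filtered genes, and 0.58 in Balb/c, or 0.77 without Balb/c T1 replicate 2, which added a call among the filtered genes (adjusted p = 0.0354). The 129X1/SvJ value was 0.37 without T1 replicate 4. Cd48 was called in 129X1/SvJ (-0.49, adjusted p = 0.0413), and that call was lost in 5 of the 34 refits that each omitted a single array.

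**Figure D2:**
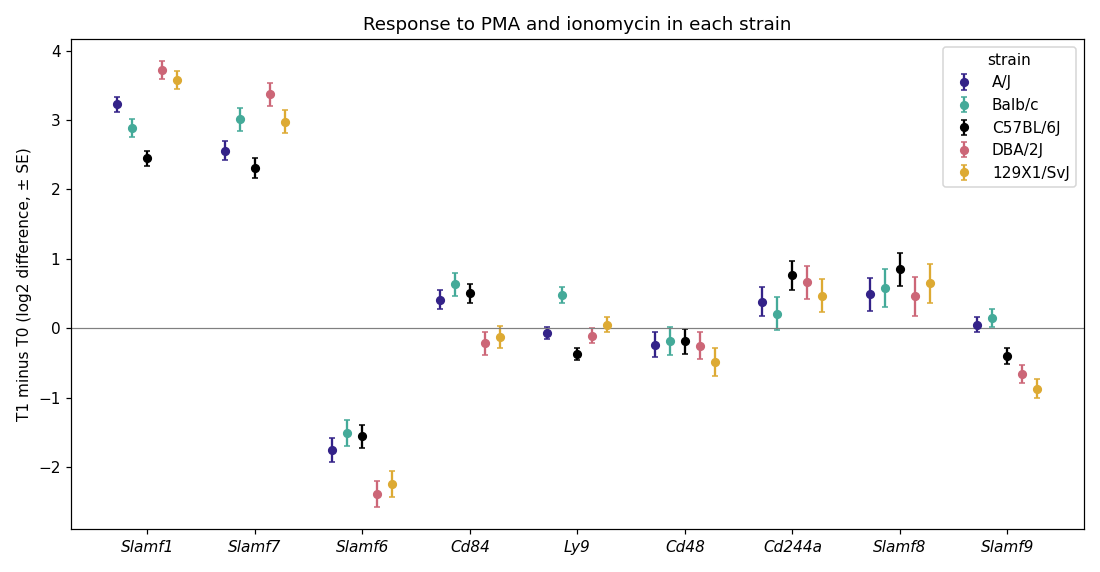
Log2 difference between T1 and T0 (vertical axis, ± SE from the model) for each member (horizontal axis) in each strain (colour). Slamf1 runs from 2.45 in C57BL/6J to 3.72 in DBA/2J, Slamf7 from 2.31 to 3.37 in the same strains, and Slamf6 lies below -1.5 in all 5, while the other members lie within 1 of 0.

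The response differed between strains in 5 of 9 members by the F test of strain by time, and in 4 of the 6 over the limit in all groups, against 6.92% of all genes. These were Slamf1 (range of the strains' log2 responses 1.26, adjusted p = 2.15e-05), Slamf9 (1.02, adjusted p = 0.000696 with no filter), Ly9 (0.85, adjusted p = 0.00257), Slamf7 (1.06, adjusted p = 0.009) and Cd84 (0.85, adjusted p = 0.0237). Slamf9 passed the filter only through DBA/2J and 129X1/SvJ at T0, and those groups also enter its range. The Cd84 call was lost without DBA/2J T0 replicate 2 (adjusted p = 0.0583), T0 replicate 4 (0.0599) or T1 replicate 4 (0.0589). Slamf6 had a range of 0.88 and was not called (adjusted p = 0.0654); without Balb/c T1 replicate 2 it was called (0.83, adjusted p = 0.0186), and likewise without Balb/c T1 replicate 1 (0.0337) or 4 (0.0271) or without 129X1/SvJ T0 replicate 4 (0.0484).

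Before stimulation the strains differed in 6 of 9 members (5 of the 6 over the limit in all groups), against 18.5% of all genes, and after it in 4 of 9 (3 of those 6), against 31.0%. At T0 the members called were Slamf1, Slamf9, Slamf6, Slamf7, Ly9 and Cd84. At T1 they were Slamf1, Slamf7, Slamf8 and Ly9; Slamf8 (span 0.85, adjusted p = 0.0464 with no filter) was kept only through C57BL/6J at T1, and among the filtered genes its call was lost without C57BL/6J T1 replicate 3 or 4, A/J T1 replicate 1 or 2 or DBA/2J T1 replicate 2, the count then falling to as few as 2. Without Balb/c T1 replicate 2, Cd84 was called at T1 (0.36, adjusted p = 0.0454) and Ly9 was not (0.0802). Cd48 and Cd244a were called at neither time, with strain means spanning 0.37 and 0.40 at T0 and 0.30 and 0.54 at T1. Pairs of strains from the same fit are named below only as single tests, where between 1.72% and 11.2% of all genes were called per pair at T0 and between 2.44% and 20.0% at T1.

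For Slamf1 at T0 the mean log2 values ran from C57BL/6J (7.84 ± 0.06, SD, n = 4) and A/J (7.57 ± 0.18, n = 4) through Balb/c (7.46 ± 0.07, n = 3) to 129X1/SvJ (6.99 ± 0.05, n = 3) and DBA/2J (6.70 ± 0.04, n = 3). The arrays read 7.78, 7.80, 7.89 and 7.90 in C57BL/6J and 6.73, 6.66 and 6.72 in DBA/2J. The arrays of the first 3 strains did not overlap those of the last 2, since the lowest A/J array read 7.32 and the highest 129X1/SvJ array 7.03. That split was read from the order after the values were seen, and no share of all genes with such a split is given. Of the neighbours in this order only Balb/c and 129X1/SvJ were called different (0.47, adjusted p = 0.0155), and this was lost without 129X1/SvJ T0 replicate 2 (0.0684), Balb/c T0 replicate 2 (0.0672) or Balb/c T0 replicate 4 (0.0518). Without Balb/c T1 replicate 2, C57BL/6J and A/J were called different too (0.047). C57BL/6J exceeded DBA/2J by 1.14 ± 0.12 (SE; limma, adjusted p = 3.69e-08).

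At T1 the order of Slamf1 was another one. A/J had the highest mean (10.80 ± 0.11, SD, n = 4), followed by 129X1/SvJ (10.57 ± 0.19, n = 3), DBA/2J (10.42 ± 0.06, n = 3), Balb/c (10.35 ± 0.38, n = 3) and C57BL/6J (10.29 ± 0.11, n = 4). No neighbours in this order were called different. A/J exceeded C57BL/6J by 0.51 ± 0.11 (SE; limma, adjusted p = 0.00267), and the A/J arrays (10.67 to 10.94) lay above the C57BL/6J arrays (10.20 to 10.43). The span of strain means was 1.14 at T0 and 0.51 at T1, or 0.66 at T1 without Balb/c T1 replicate 2. That array read 10.78 and the other Balb/c arrays 10.06 and 10.22, so without it the Balb/c mean was 10.14, the lowest of the 5, and Balb/c lay below 129X1/SvJ (-0.43, adjusted p = 0.0125, against -0.21 and 0.359 with it), as C57BL/6J then did (-0.27, adjusted p = 0.0481).

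For Slamf7 at T0 the mean was 8.00 ± 0.12 in C57BL/6J (SD, n = 4) and 7.57 ± 0.14 in 129X1/SvJ (n = 3). The other means lay close together, with 7.27 ± 0.23 for Balb/c (n = 3), 7.27 ± 0.16 for A/J (n = 4) and 7.20 ± 0.28 for DBA/2J (n = 3). No neighbours in the order were called different; C57BL/6J exceeded DBA/2J by 0.80 ± 0.15 (SE; limma, adjusted p = 0.000491). Without Balb/c T1 replicate 2, C57BL/6J and 129X1/SvJ were called different at T0 (0.44, adjusted p = 0.0219). At T1 the lowest strain was A/J, with arrays from 9.66 to 10.01. It lay below DBA/2J (mean 10.57) by 0.74 ± 0.15 (SE; limma, adjusted p = 0.00134) and below 129X1/SvJ (10.54) by 0.71 ± 0.15 (adjusted p = 0.00147), both of whose arrays lay above every A/J array. Without Balb/c T1 replicate 2, Balb/c lay below DBA/2J (-0.54, adjusted p = 0.0178, against -0.30 and 0.303 with it) and below 129X1/SvJ (-0.51, adjusted p = 0.0287, against -0.26 and 0.386). A/J thus held the highest stimulated Slamf1 and the lowest stimulated Slamf7 among the strain means.

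For Slamf6 at T0 the means were 9.76 ± 0.22 in 129X1/SvJ (SD, n = 3), 9.66 ± 0.12 in DBA/2J (n = 3), with A/J at 9.15 ± 0.29 (n = 4), Balb/c at 9.05 ± 0.17 (n = 3) and C57BL/6J at 8.76 ± 0.20 (n = 4). No neighbours in this order were called different, though without Balb/c T1 replicate 2 DBA/2J and A/J were (-0.51 for A/J minus DBA/2J, adjusted p = 0.0187). C57BL/6J lay below 129X1/SvJ by 1.00 ± 0.18 (SE; limma, adjusted p = 0.000205) and below DBA/2J by 0.91 ± 0.18 (adjusted p = 0.000697). At T1 the strain means of Slamf6 spanned 0.34 and were not called (adjusted p = 0.445).

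For Slamf9 at T0, DBA/2J (5.84 ± 0.16, SD, n = 3) and 129X1/SvJ (5.81 ± 0.08, n = 3) were highest, with arrays of 5.83, 6.01 and 5.69 and of 5.83, 5.73 and 5.89. C57BL/6J followed with 5.31 ± 0.12 (n = 4), then A/J with 4.93 ± 0.14 (n = 4) and Balb/c with 4.78 ± 0.23 (n = 3). All arrays of the first pair of strains lay above all 11 arrays of the other strains, a split also read from the order, with no share of all genes beside it. With no filter, C57BL/6J minus 129X1/SvJ was -0.50 (adjusted p = 0.00839), and A/J minus C57BL/6J was -0.38 and not called (adjusted p = 0.0536). The strains that carried Slamf9 into the test were those that were high here, and the other 3 strains lay under the limit. At T1 the strain means spanned 0.28 (adjusted p = 0.474), all under the limit.

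Cd84 at T0 was highest in DBA/2J (8.00 ± 0.26, SD, n = 3) and lowest in Balb/c (7.36 ± 0.12, n = 3). The F test over strains was called (span 0.64, adjusted p = 0.0217) but not without Balb/c T0 replicate 2 (0.0539), DBA/2J T0 replicate 2 (0.107) or DBA/2J T0 replicate 4 (0.123). Ly9 at T0 was highest in C57BL/6J (8.55 ± 0.05, SD, n = 4) and lowest in Balb/c (7.98 ± 0.11, n = 3), a difference of 0.58 ± 0.10 (SE; limma, adjusted p = 0.00025). At T1 Ly9 was highest in Balb/c (8.45 ± 0.06, n = 3), and the F test there (span 0.31, adjusted p = 0.0433) did not survive in 17 of 34 refits, each without a single array.

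Markers of other cells moved with some of these orders. At T0 the mean levels of B cell markers were 8.29 to 8.89 in DBA/2J and 8.33 to 8.80 in 129X1/SvJ, against 7.23 to 8.24 in C57BL/6J, 7.90 to 7.94 in Balb/c and 7.43 to 7.80 in A/J, with none of the 10 markers under the limit at T0. The dendritic cell markers were 6.42 to 6.64 in DBA/2J and 6.29 to 6.46 in 129X1/SvJ against 5.67 to 6.37 in the other strains, with Xcr1 and Clec9a of the 8 under the limit in every group. The strains with the highest Slamf6, Slamf9 and Cd84 at T0 were thus those with the highest B cell and dendritic cell markers, and the part of these cells in the 3 genes' strain differences was not tested. T cell markers at T0 were 9.37 to 9.72 in DBA/2J and 9.41 to 9.61 in 129X1/SvJ, against 9.56 to 9.93 in the other strains. At T1 they were 8.58 to 8.69 and 8.50 to 8.85, against 8.91 to 9.38. DBA/2J and 129X1/SvJ also had the lowest Slamf1 at T0. Erythroid markers at T0 were 5.38 to 5.99 in 129X1/SvJ, against 6.33 to 9.47 in the other strains. The part of T cell or erythroid content in any strain difference was not tested.

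**Figure D3:**
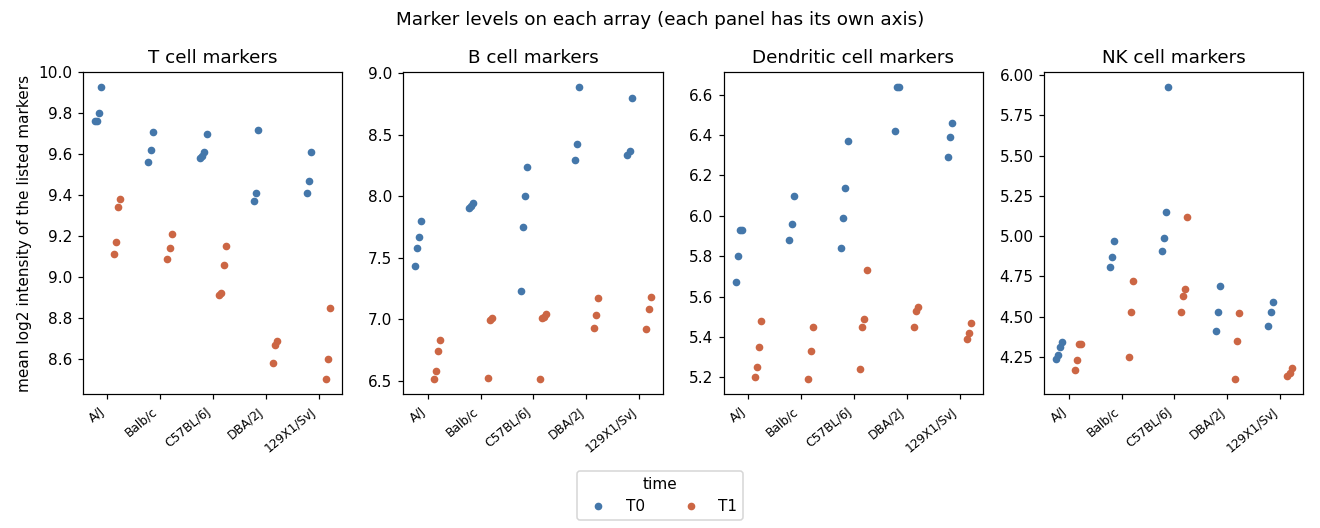
Mean log2 intensity of the measured markers of T cells (7 genes), B cells (10), dendritic cells (8) and NK cells (8) on each array (points) by strain at T0 and T1, each panel with its own vertical axis. B cell and dendritic cell markers are highest at T0 in DBA/2J and 129X1/SvJ, and NK cell markers at T0 in C57BL/6J.

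C57BL/6J, the strain with the other haplotype of the cluster, was set against the mean of the other 4 strains. At T0 4 of 9 members were called, against 8.92% of all genes: Slamf1, Slamf7 and Ly9 were higher (5.81% of all genes) and Slamf6 was lower (3.11%) in C57BL/6J. The log2 differences were 0.66 ± 0.09 for Slamf1 (SE; limma, adjusted p = 3.49e-06), 0.67 ± 0.12 for Slamf7 (adjusted p = 0.000112), 0.32 ± 0.07 for Ly9 (adjusted p = 0.0039) and -0.65 ± 0.14 for Slamf6 (adjusted p = 0.00129). All 4 calls held under every alternative and without any single array. For 3 members every C57BL/6J array lay above all 13 arrays of the other strains at T0, as was the case for 1.73% of all genes. The C57BL/6J arrays ran from 7.78 to 7.90 for Slamf1, where the highest other array read 7.73, from 7.87 to 8.14 for Slamf7 against 7.73, and from 8.48 to 8.60 for Ly9 against 8.47. The nearest other array was thus only just lower for Slamf1 and Ly9, and the Slamf6 arrays (8.48 to 8.97) overlapped those of the other strains (8.88 to 9.92).

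At T1 these differences were smaller or of the other sign. For Slamf7 the difference was 0.00, with a 95% interval from -0.23 to 0.24. For Slamf1 it was -0.24 (interval -0.42 to -0.06, adjusted p = 0.0852), for Ly9 -0.14 (-0.29 to 0.02, adjusted p = 0.274) and for Slamf6 -0.23 (-0.51 to 0.05, adjusted p = 0.314). At T1 none of the 6 members over the limit in all groups was called, against 10.7% of all genes. Slamf8 was, but this was the group through which it entered the test. Its C57BL/6J arrays ran from 4.95 to 6.40 and the other strains' arrays from 4.59 to 5.83, a difference of 0.67 ± 0.19 (SE; limma with no filter, adjusted p = 0.0333). Without C57BL/6J T1 replicate 3 the difference was 0.41 and without replicate 4 it was 0.58, neither called among the filtered genes. Without Balb/c T1 replicate 4, Slamf1 was called too (-0.28, adjusted p = 0.033).

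The response itself differed between C57BL/6J and the other strains in 3 of 9 members, against 2.76% of all genes, and all 3 were less positive in C57BL/6J, as were 1.92% of all genes. The differences in log2 response were -0.90 ± 0.13 for Slamf1 (SE; limma, adjusted p = 6.05e-05), -0.67 ± 0.16 for Slamf7 (adjusted p = 0.0173) and -0.46 ± 0.11 for Ly9 (adjusted p = 0.0114). These are the members with higher T0 values in C57BL/6J, and the T0 values enter both contrasts. The Slamf7 call was lost without C57BL/6J T0 replicate 3 (adjusted p = 0.0541) or T1 replicate 4 (0.0595). C57BL/6J arrays at T0 also carried more NK cell marker signal (4.91 to 5.93, against 4.24 to 4.97 in the other strains, with 4 of 8 markers under the limit in C57BL/6J) and less neutrophil marker signal (5.04 to 5.49 against 5.68 to 7.02). Of the 9 neutrophil markers, 5 were under the limit in C57BL/6J at T0 and 1 in each other strain. The part of NK cells and neutrophils in the differences of Slamf1, Slamf7 and Ly9 was not tested. A probe set can also read an allele differently where a strain's sequence departs from the one the probes were made for, and this was not tested.

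Along chromosome 1, 7 members formed a run in the order Cd244a, Ly9, Slamf7, Cd48, Slamf1, Cd84 and Slamf6, and Slamf9 and Slamf8 lay apart further along. The 5 measured neighbours before the run were Pfdn2, Nectin4, Arhgap30, Usf1 and Alyref2, and the 5 after it Vangl2, Ncstn, Copa, Pex19 and Dcaf8. For C57BL/6J against the other strains at T0, 1 of 10 was called, near the share of 8.92% among all genes. This was Copa, which encodes a subunit of the vesicle coat, with 0.21 ± 0.06 (SE; limma, adjusted p = 0.0413), which missed the threshold in 11 of the 34 refits with 1 array omitted. None of the 10 was called at T1 or in the response, though 1 was at T1 without Balb/c T1 replicate 2. Among all genes 10.7% were called at T1 and 2.76% in the response, so these counts were near the background too. Within the run, the members called at T0 were interspersed with Cd48 (-0.27, 95% interval -0.57 to 0.02) and Cd84 (-0.18, interval -0.41 to 0.05), which were not. Cd244a, at the start of the run, was not called either (-0.13, interval -0.47 to 0.22). The median difference at T0 was 0.04 over the neighbours, -0.03 over the 9 members and 0 over all genes. After stimulation 10 of 10 neighbours were called (2 up, 8 down) at a background of 82.3%.

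**Figure D4:**
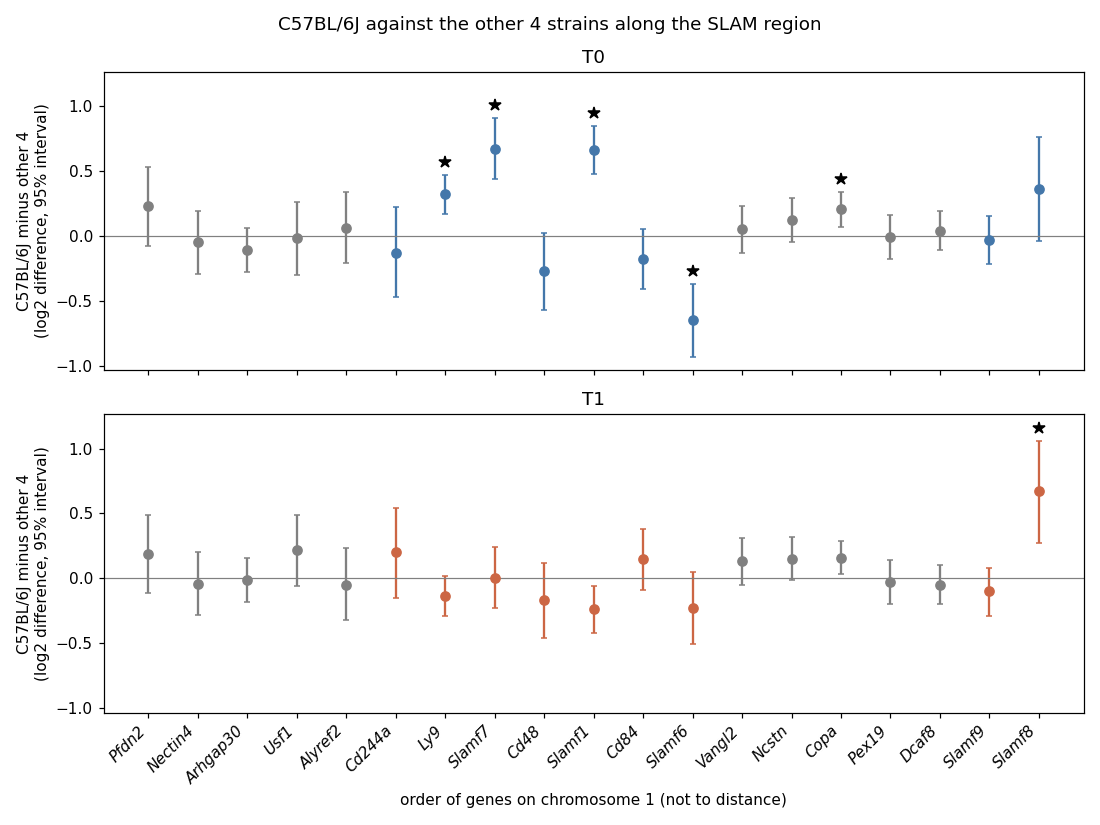
Log2 difference between C57BL/6J and the mean of the other 4 strains (points, with 95% intervals) at T0 and T1 for genes in their order on chromosome 1; coloured points are members, grey points neighbours, and stars mark an adjusted p under 0.05. At T0 Ly9, Slamf7 and Slamf1 lie above 0 and Slamf6 below it, and at T1 none of these 4 is starred, while Slamf8 is, in the group through which it entered the test.

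The adaptors and signalling proteins of the pathway were followed as a list of 14 genes, of which 13 were on the array and 11 were kept. After stimulation 2 were called higher and 7 lower, against 36.0% and 46.3% of all genes and 82.3% in either direction, which is near the share of 9 in 11, with a median log2 difference of -0.76 against -0.07 over all genes. Sh2d1a, which encodes SAP, fell in all 17 pairs, from 7.24 to 8.78 at T0 to 4.90 to 6.79 at T1, so that the times did not overlap. Its mean log2 difference was -1.97 ± 0.09 (SE; limma, adjusted p = 1.66e-18). Fyn, the kinase that SAP recruits, rose in all 17 pairs by 0.43 ± 0.04 (SE; limma, adjusted p = 1.65e-11), and Cd2, the other partner of CD48, by 0.18 ± 0.06 (adjusted p = 0.00742) with 12 of 17 pairs higher. Within strains, Cd2 was called only in A/J (0.49) and Balb/c (0.38), and was 0.14 in 129X1/SvJ, 0.07 in DBA/2J and -0.18 in C57BL/6J. Sh2d1a and Slamf6 thus fell while Slamf1, Slamf7 and Fyn rose.

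The EAT-2 genes were left out of the test by the filter. Sh2d1b1 read 3.27 to 4.26 at T0 and 3.87 to 5.13 at T1, and Sh2d1b2 2.58 to 3.08 and 2.77 to 3.88, all under the limit. Of the phosphatases that bind the switch motifs, Inpp5d (SHIP1) fell by 2.00 ± 0.09 on the log2 scale (SE; limma, adjusted p = 5.79e-19) and Ptpn6 (SHP-1) by 1.36 ± 0.08 (adjusted p = 4.3e-16), whereas Ptpn11 (SHP-2) had a difference of 0.01 (95% interval -0.07 to 0.09, adjusted p = 0.818) with 9 pairs higher and 8 lower. Inpp5d and Ptpn6 were the pathway genes whose response differed between strains by the F test (adjusted p = 0.018 and 0.00391), with the larger falls in DBA/2J (-2.56 and -1.95) and 129X1/SvJ (-2.52 and -1.90). That is 2 of 11 against 6.92% of all genes, and 5 without Balb/c T1 replicate 2. DBA/2J and 129X1/SvJ also had the highest B cell and dendritic cell markers at T0. The part of these cells in the falls of Inpp5d and Ptpn6 was not tested. The strains differed in 5 of 11 pathway genes at T0 (3 without Balb/c T0 replicate 2 or C57BL/6J T0 replicate 2), against 18.5% of all genes, and in 5 of 11 at T1, against 31.0%. The count at T1 was 7 without Balb/c T1 replicate 2. In C57BL/6J Sh2d1a at T1 was higher than in the other strains by 0.80 ± 0.15 (SE; limma, adjusted p = 0.000696), and 2 further pathway genes, Csk and Plcg1, were called higher there (0.30 and 0.42), 3 of 11 against 10.7% of all genes; at T0 only Ptpn6 was called (-0.49), 1 of 11 against 8.92%, and no pathway gene was without C57BL/6J T0 replicate 2 or 4. None was called in the response, and 1 was without Balb/c T1 replicate 1 or 4 or C57BL/6J T1 replicate 4.

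The genes whose strain pattern was most like that of each member were taken by Pearson's r over the 10 group means, after subtracting the mean of each time, as a description with no test. Over those 10 points, which share the same arrays, Slamf1 was most like Cd69 (r = 0.943), an early activation receptor, and Ndfip1 (0.929), an adaptor of ubiquitin ligases. Slamf7 was most like Gem (0.959), a small GTP-binding protein, and Gsto1 (0.952), and Slamf6 most like Tmcc3 (0.969) and Cadm1 (0.954). For Slamf9 the nearest were Irf2bp2 (0.972) and Gprc5b (0.951), for Slamf8 Rcor3 (0.975) and Phc1 (0.96), and for Cd84 Mtmr1 (0.929) and Trpv2 (0.927). Cd244a was nearest to Polr2l (0.954) and Nxn (0.938), Cd48 to Znrf4 (0.945) and Wwtr1 (0.899), and Ly9 to Tyw5 (0.876) and Tmx3 (0.875). No member was among another member's nearest genes. These r are the highest found among the 11413 genes tested, so a high r can come from the search alone. Some of these genes hardly varied between strains, with strain means spanning 0.14 at T0 and 0.26 at T1 for Rcor3 and 0.18 and 0.21 for Mtmr1. Slamf8 was under the limit in 9 of 10 groups and Slamf9 in 8. Cd48 and Cd244a had no called strain difference at either time.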

How the data were processed

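RNA from each sample was hybridised to 1 Affymetrix array. Per the submitters' processing notes, the authors used RMA, and the deposited values are log2 intensities of 35556 probe sets; no version was stated in the notes. Array annotation named 1 gene for 21789 probe sets, several for 1621 and none for 12146; symbols were updated through RefSeq for GRCm38.p6. The brightest probe set with 1 symbol stood for a gene. Genes with all 10 group means under the table's median value (5.33) were dropped, leaving 11413. Contrasts and moderated F tests came from limma 3.58.1 in R 4.3.3, 1 model of 10 groups, with Benjamini-Hochberg adjustment; the procedure was tested on simulated data. Promoter letters were searched with Python 3.11.15. The number of arrays limits the precision.

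The members, pathway list and marker lists were chosen with earlier results of these data known. Named were all members, 5 adaptors and partners, the 2 other pathway genes with the largest change, called neighbours on chromosome 1 and the 2 genes most like each member; Csk, Plcg1, Ptpn11 and single markers were named after their values were seen. Alternatives changed the filter, normalization, probe set rule, replicate block and variance model, and left out each array.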

Additional observations from a re-analysis of the deposited data

Results flagged for a closer look

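Slamf7 in A/J at T0 stood out in replicate 5, which read 7.51 where the other 3 arrays read 7.16 to 7.21. It was the only array set apart by Dixon's test in 36 groups of 4 examined, and chance sets apart about 1 in 20 such groups. The response to stimulation differed between strains by the F test, with ranges of strain responses on the log2 scale of 1.26 for Slamf1, 1.06 for Slamf7, 1.02 for Slamf9, 0.85 for Cd84 and 0.85 for Ly9.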

How the results depend on the processing

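Of 288 values of members, 235 kept their direction and their side of the threshold under all 43 settings (9 other settings and 34 that left out 1 array), 53 changed side in at least 1, and none reversed. The count of members called for C57BL/6J against the other strains at T1 was 0 with the stricter filter, which leaves out Slamf8, and 0 to 2 when 1 array was left out. The count for strains at T1 was 2 to 4 when 1 array was left out, with 2 without A/J T1 replicate 1 or 2 or C57BL/6J T1 replicate 3 or 4; the cause was not tested. No filter lost Slamf8 (adjusted p = 0.0642) and Cd48 (0.0592) in 129X1/SvJ and Ly9 at T1 (0.0827). Median centring lost Cd48 in 129X1/SvJ (0.0523) and Ly9 at T1 (0.0508), and a trended, robust variance model lost Slamf8 in 129X1/SvJ (0.0507). Of the 17 pairs of T0 and T1 arrays with 1 number, 14 correlated above 0.1 (-0.0785 to 0.474) and 13 correlated best with their own number, a hint from the data that numbers may pair samples in some strains. The labels do not say so and 3 pairs lay below 0.1, so the fit without the block was kept. With that pair as a random replicate block (correlation 0.195), limma also called Slamf8 in A/J (0.0401) and Balb/c (0.0354), Cd244a in 129X1/SvJ (0.0494) and the strain by time test of Slamf6 (0.0208). A block for the number shared by the strains called Slamf8 in A/J (0.0123), Balb/c (0.0104) and DBA/2J (0.0387), Cd244a in A/J (0.0155), in 129X1/SvJ (0.00939) and across strains at T1 (0.0449), and also Slamf6 for strain by time (0.0419), as did repeated quantile normalization (0.0357). The pathway genes called for strain by time numbered 5 and 4 with the blocks. Without both Balb/c arrays of number 2, a setting chosen after seeing the data, Cd84 in Balb/c was 0.27 (adjusted p = 0.151). The replicate count of 3 or 4 arrays limits every strain comparison, and values under 5.33 are not shown to exceed background.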
